A study of Homo sapiens with 10 samples.

Results

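The sites described here were the 517 HER2 peaks listed after EGF in both SKBR3 and BT474 cells and after vehicle in neither. They were the peaks of the SKBR3 EGF list that overlapped a BT474 EGF peak by at least 1 bp and no peak of either vehicle list. They made up 20.5% of the 2520 peaks in the SKBR3 EGF list. The 4 HER2 lists of the series held 43001 peaks in all.

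Both lines are established human breast cancer cells with extra copies of ERBB2, the gene that encodes HER2. HER2 was mapped by ChIP-exo, in which DNA precipitated with an antibody to HER2 is trimmed by an exonuclease up to the crosslinked protein. Growing cells without serum deprivation received EGF at 100 ng/ml or vehicle (water) for 3 hours, with 1 HER2 list per line and treatment and no replicate. For each line, 2 replicate ChIP-seq libraries of H3K4me1, histone H3 with a single methyl group on lysine 4, were also available. The H3K4me1 cells are labelled asynchronous, whereas the study's text calls them EGF-treated, and the lists did not settle which holds. The labels list a different set of HER2 antibody lots for each line, so line and lots cannot be told apart.

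HER2 is a receptor tyrosine kinase of the ERBB family that has no ligand of its own and signals as a dimer with another family member. EGF binds EGFR, a partner of HER2 in such dimers, and so brings HER2 signalling under the control of this growth factor. Full-length HER2 has also been found in the nucleus on chromatin, where its way of contacting DNA is not settled. H3K4me1 marks enhancers, both active and poised.

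As a check of the cell lines, H3K4me1 islands covered 97.6% and 97.2% of the ERBB2 gene body in the SKBR3 replicates and 100% in each BT474 replicate. GATA3, a luminal transcription factor gene, had no island in either SKBR3 replicate and 55.9% and 53.2% cover in BT474. Cover of PGR, the progesterone receptor gene, was 2.40% and 3.54% in SKBR3 against 88.6% and 86.6% in BT474. That of ESR1, the oestrogen receptor gene, was 19.7% and 18.8% against 26.3% and 27.3%. The island files held between 15097245 and 18714089 reads per library and covered between 9.75% and 10.6% of the genome.

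The membership rule rests on lists of unequal length. The BT474 EGF list held 29326 peaks, the BT474 vehicle list 8559 and the SKBR3 vehicle list 2596. The HER2 files give no read counts, so the depth behind a peak is unknown, and a peak missing from a vehicle list was not called there, which is not the same as unbound. Among the other SKBR3 EGF peaks, 243 overlapped peaks in all 4 lists, 1303 overlapped peaks in every list but SKBR3 vehicle, and 345 stood in no other list. The remaining 112 had other combinations and, apart from a remark on their purine content, are not described as a group of their own below. When the BT474 EGF list was cut to its 2520 highest scores, 64 of the 517 sites were left.

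The sites are introduced by their sequence, with examples of a short core that few of them carried and of purine stretches that many did. The core CGTNTGC, searched on both strands within 50 bp of the midpoint, was carried by 31 of the 517 sites, a share below that of the whole SKBR3 EGF list given further on. The 6 core-bearing sites with the highest SKBR3 EGF score are printed as 101 bp windows of the GRCh37 plus strand, with the core in capitals.
KIRREL3 intron, chr11:126792271-126792371: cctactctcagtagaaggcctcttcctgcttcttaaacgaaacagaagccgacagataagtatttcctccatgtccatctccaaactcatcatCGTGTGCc
intergenic, LYZL1 nearest, chr10:29479750-29479850: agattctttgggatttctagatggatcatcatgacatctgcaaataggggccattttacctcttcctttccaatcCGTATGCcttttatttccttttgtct
intergenic, ENSG00000224104 nearest, chr7:152924097-152924197: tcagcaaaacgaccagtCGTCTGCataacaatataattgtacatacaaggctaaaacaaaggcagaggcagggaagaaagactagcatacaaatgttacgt
intergenic, RNA5SP215 nearest, chr6:121039192-121039292: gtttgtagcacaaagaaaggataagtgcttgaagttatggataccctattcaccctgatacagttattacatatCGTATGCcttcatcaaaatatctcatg
HULC intron, chr6:8954664-8954764: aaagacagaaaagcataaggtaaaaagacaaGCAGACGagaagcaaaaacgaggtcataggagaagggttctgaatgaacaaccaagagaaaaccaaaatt
NELL1 intron, chr11:20735494-20735594: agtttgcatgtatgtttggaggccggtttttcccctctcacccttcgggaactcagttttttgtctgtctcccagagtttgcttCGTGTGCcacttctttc
In the HULC intron the core lies on the minus strand and reads in reverse complement. The others carry it on the plus strand, at varied distances from the midpoint.

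The other kind of sequence was long stretches of purines on a single strand, seen as pyrimidines where the purines lie on the minus strand. Windows of 3 of the 5 sites with the most purine, chosen after their values were seen, are shown with the longest uninterrupted run in capitals.
within ANAPC7, promoter, chr12:110825071-110825171: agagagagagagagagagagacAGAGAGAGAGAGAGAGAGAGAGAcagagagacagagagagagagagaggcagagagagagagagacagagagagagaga
within ZBTB20, promoter, chr3:114819209-114819309: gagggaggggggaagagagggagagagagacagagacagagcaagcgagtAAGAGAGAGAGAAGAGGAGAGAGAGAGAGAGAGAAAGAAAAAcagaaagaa
ENSG00000233358 intron, chr6:22831477-22831577: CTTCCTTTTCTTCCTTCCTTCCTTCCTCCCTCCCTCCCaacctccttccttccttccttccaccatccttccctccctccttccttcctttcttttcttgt
Chosen by score instead, the windows of both sites without the core that had the highest SKBR3 EGF scores follow. On the richer strand they held 72.3% purine at TMEM178B and 65.3% at the chromosome 5 site. The longest run of purines or pyrimidines is in capitals.
TMEM178B intron, chr7:140783168-140783268: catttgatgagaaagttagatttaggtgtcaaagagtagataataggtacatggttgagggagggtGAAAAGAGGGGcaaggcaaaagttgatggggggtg
intergenic, ENSG00000278824 nearest, chr5:71146566-71146666: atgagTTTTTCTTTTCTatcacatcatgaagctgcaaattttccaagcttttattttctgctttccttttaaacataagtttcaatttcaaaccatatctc
Their longest runs were 11 and 12 bases, against 23, 42 and 38 bases at the windows chosen for their purine. The median over all 517 sites was 10 bases.

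Scores are described first, without a test, since the same lists chose the sites. The score is the authors' value for each peak and moves in steps of 0.5 on a scale the files do not state. Groups were compared by its rank within a list, and a Pearson correlation used its logarithm. Scores of the lines printed side by side are not known to share a scale. In the SKBR3 EGF list the 517 sites had a median score of 109.5, with quartiles of 66.5 and 167 and a range from 6 to 5831. Their median percentile was 42.8 (95% order-statistic interval 39.0 to 47.0), below the middle of the list. Peaks found in all 4 lists had a median percentile of 75.5, those missing from SKBR3 vehicle alone 53.0, and those of SKBR3 EGF alone 29.7. By median, the sites thus ranked above the peaks of SKBR3 EGF alone and below those of all 4 lists and those missing from SKBR3 vehicle alone.

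The overlapping BT474 EGF peaks had a median score of 76, with quartiles of 46.5 and 127 and a range from 9 to 1247. Their median percentile in that list was 66.3 (61.9 to 70.7), against 97.7 for peaks in all 4 lists and 92.8 for those missing from SKBR3 vehicle alone. The 20353 BT474 EGF peaks in no other list had a median percentile of 39.3. In each line, therefore, the sites lay by median above the peaks of a single EGF list. They lay below those of all 4 lists and those missing from SKBR3 vehicle alone. Ranks in the lines were loosely related, with a Spearman correlation of 0.18 and a Pearson correlation of 0.16 on log10 scores over the 517 sites. Above the list median in both lines stood 155 sites, and below it in both stood 121. In the top 10% of the list were 19 sites for SKBR3, 79 for BT474 and 4 for both.

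**Figure D1:**
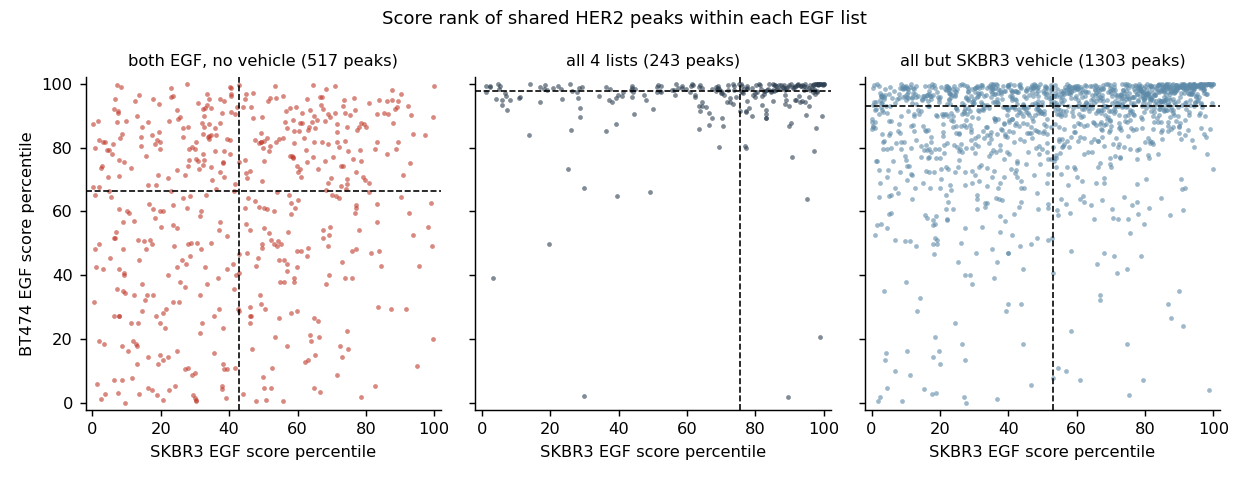
Each point is a SKBR3 EGF peak, placed by its score percentile in the SKBR3 EGF list (x axis) and that of the overlapping peak in the BT474 EGF list (y axis), for the 517 sites of both EGF lists and no vehicle list, the 243 peaks of all 4 lists and the 1303 missing from SKBR3 vehicle alone. Dashed lines are medians. The 517 sites spread over the whole range of both axes, whereas the other groups crowd near the top for BT474.

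Although the rule asks for 1 bp, the peaks of the lines lay almost on top of each other. The overlap had a median of 200 bp and a range from 13 to 399 bp, in SKBR3 peaks of median width 207 bp and BT474 peaks of median width 272 bp. The midpoints lay a median of 28 bp apart, and within 50 bp for 375 sites (72.5%). The 517 sites met 513 distinct BT474 EGF peaks, so a few adjoining sites shared a BT474 peak.

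Sites just inside and just outside the rule had the following values, given without a test. A site on chromosome 1 had a vehicle peak only 3 bp away and scores of 162 in SKBR3 and 240.5 in BT474. An intronic site in CACNA1B on chromosome 9, the gene for a neuronal calcium channel, had a BT474 vehicle peak 28 bp away and scores of 190 and 492. The site with the least BT474 overlap, 13 bp, scored 47 and 111. Just outside, a chromosome 17 peak overlapped a vehicle peak by 21 bp and scored 392.5 and 216.5. A chromosome 1 peak overlapped a vehicle peak by 33 bp and scored 5149.5 and 90.5. A chromosome 22 peak with a score of 73.5 missed the nearest BT474 EGF peak by 23 bp. Most sites were far from such a limit, with a median of 256 kb to the nearest SKBR3 vehicle peak and 98.1 kb to the nearest BT474 vehicle peak. A vehicle peak lay within 1 kb of 24 sites, of SKBR3 for 7 and of BT474 for 17.

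The sites with the highest SKBR3 scores were spread over several chromosomes. An intron of TMEM178B, which encodes a transmembrane protein, held the highest, with a score of 5831 (rank 5 in its list) and a BT474 score of 489.5 (rank 209). The next was an intergenic site on chromosome 5 with a score of 3729.5 in SKBR3 but 33 in BT474, at percentile 20.1 of that list. It lay 0.346 kb from a BT474 vehicle peak. A pair of sites near the pseudogene CDC27P1 scored 1497.5 and 1048.5 in SKBR3, and 55 and 70.5 in BT474. How uniquely reads can be placed next to this pseudogene was not tested. Introns of RBFOX3, CDH4 and PTPRT held further high SKBR3 scores of 662, 514 and 401.5, with BT474 scores of 61, 126.5 and 27. RBFOX3 encodes the neuronal splicing regulator NeuN, CDH4 encodes R-cadherin, and PTPRT encodes a receptor-type tyrosine phosphatase. Further ones among the 10 highest were intergenic sites near the pseudogenes MTCO3P41 and H3P39, with SKBR3 scores of 410 and 377.5 and BT474 scores of 49.5 and 128.

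The 5 sites with the highest BT474 scores were different sites, and each lay within 1 kb of a BT474 vehicle peak. The highest, an intergenic site on chromosome 7 nearest to AC104133.1, scored 1247 in BT474 (rank 11) and 78 in SKBR3 (rank 1819), with a BT474 vehicle peak 0.102 kb away. A chromosome 2 site nearest to AC124861.2 scored 573.5 in BT474 and 28.5 in SKBR3. Adjoining sites in the immunoglobulin heavy chain locus near IGHA2 overlapped the same BT474 peak, which scored 552, and had SKBR3 scores of 110 and 167. The CACNA1B site with a vehicle peak 28 bp away was the fifth. At these sites the absence from the vehicle list thus rested on a distance of under 1 kb to the nearest vehicle peak.

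The sites lay mostly in introns and between genes. By the midpoint, 27 sites were in promoters, taken as the 1 kb upstream of a start site, which is 5.22% (95% Wilson interval 3.61 to 7.49) against 4.96% of all SKBR3 EGF peaks. Introns held 256, or 49.5% (45.2 to 53.8), against 53.2% of the list. Exons held 24 (4.64%), and 210 (40.6%, 36.5 to 44.9) were intergenic. The intervals cover counting error only. The SKBR3 EGF list's shares of promoters and introns lay inside the intervals of the sites. Against the whole BT474 EGF list, with 55.2% in introns and 35.6% intergenic, the sites had a lower intron and a higher intergenic share, and both list values lay outside their intervals.

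**Figure D2:**
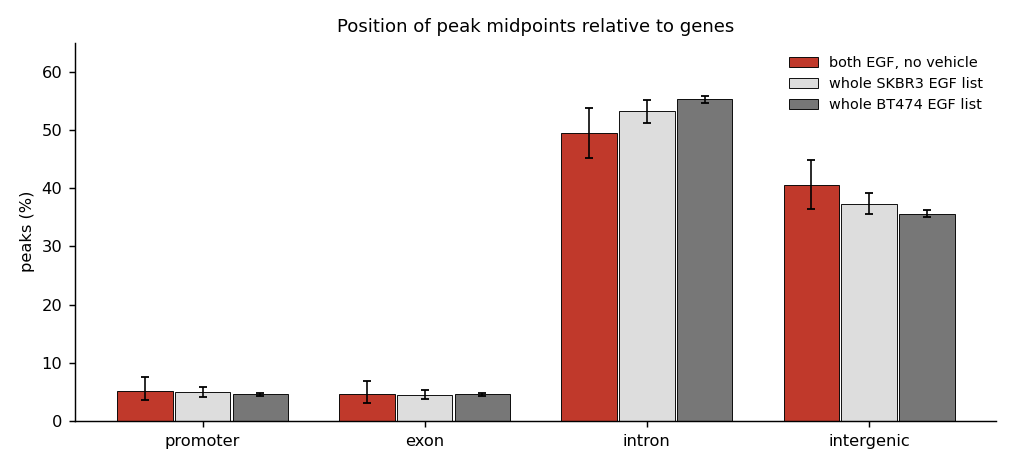
Bars give the share of peak midpoints (y axis, percent) in promoters, exons, introns and intergenic sequence for the 517 sites and for the whole SKBR3 EGF and BT474 EGF lists, and error bars are 95% Wilson intervals. Promoters take 5.22%, 4.96% and 4.54% and introns 49.5%, 53.2% and 55.2% in that order.

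A start site lay within 10 kb of 216 sites, which gave 318 genes, 162 of them protein-coding. The median distance to a protein-coding start site was 44 kb, against 38 kb over the whole SKBR3 EGF list, and it passed 100 kb for 163 sites. Among the sites, 21 lay in the promoter of a protein-coding gene. The start of any annotated transcript counted, so such a site can lie inside the body of the gene it is named after. The highest SKBR3 score among these, 221.5, belonged to HK1, the gene for a hexokinase, an enzyme that phosphorylates glucose, with 106.5 in BT474. BCL6, a transcriptional repressor gene, followed with 214 and 250, at a site 0.312 kb from the start site that was 89.1% purine. PRKAG2, a regulatory subunit of AMP-activated protein kinase, had 197.5 and 204.5. GRM6, a glutamate receptor gene, had 191 and 74, and LRFN3, a synaptic adhesion gene, had 189 and 175. The cell cycle phosphatase gene CDC25C had 153 in SKBR3 and a low 39 in BT474, at percentile 28.9 of its list. ABHD12, a lipid hydrolase gene, had 153 and 92.5, and the gene listed as AC138517.1 had 149.5 and 132. ING1, a chromatin reader gene, had 143 and 45.5. PRKDC, which encodes the catalytic subunit of DNA-dependent protein kinase, had 132 and 68. These 10 were picked as the highest SKBR3 scores among the 21, and all stood above the median of the SKBR3 list. CDC25C and ING1 scored below the median of the BT474 list.

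Genes of the EGF response were looked for among 244 genes in 9 lists covering receptors, kinase cascades and immediate early genes. A site within the gene or within 10 kb of a start site was found for 9 of them, against 1.45% of all 20149 protein-coding genes. None of the 15 ERBB receptor and ligand genes had such a site, nor did any of 34 PI3K and AKT genes, 24 JAK and STAT genes, 23 feedback inhibitors and 17 luminal transcription factors. A share of 0 of 15 says little, because 1.45% of that number is under a single gene. The MAP kinase cascade had 1 of 45, protein kinase C 1 of 12 and the immediate early genes 1 of 24. Receptor tyrosine kinases outside the ERBB family had 6 of 50 (12.0%), among them INSR, MUSK, PTK7 and ROR2, and 1 site counted for 2 of the 6 genes. The genes of this list had a median length of 84.5 kb, against 27.2 kb for all protein-coding genes, and the part of gene length was not tested.

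By score, MAP3K13, a kinase upstream of JNK, came first, with 249.5 in SKBR3 and 117 in BT474. JUN, the AP-1 subunit gene induced early after EGF, had 175 and 255. The JUN site lay in the intron of a long annotated transcript and not at the promoter. MUSK, the receptor of the neuromuscular junction, had 153.5 and 72, and PTK7, a pseudokinase of Wnt signalling, had 151.5 and 68.5. PRKCE, a protein kinase C gene, had 130 in SKBR3 and 20.5 in BT474, at percentile 4.84 there. INSR, the insulin receptor gene, had 127.5 and 116.5. ROR2, a Wnt receptor gene, had 7 and 41, at percentile 0.476 of the SKBR3 list. The sites named here ranged from the bottom of the SKBR3 list to percentile 83.4.

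The protein-coding genes that held a site were long. A site lay within 231 protein-coding genes, whose median length was 156 kb, against 27.2 kb over all such genes. Of the 827 genes over 300 kb, 79 (9.55%) held a site, against 11 of 5268 genes under 10 kb (0.209%). The same length classes held any SKBR3 EGF peak in 34.1% and 0.740% of genes. Per length the order did not hold, with 20.03 sites per 100 Mb in genes over 300 kb, 13.6 from 100 to 300 kb, 14.97 from 30 to 100 kb, 29.9 from 10 to 30 kb and 44.2 under 10 kb. The share of genes with a site thus grew with gene length, and the number of sites per base did not.

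At least 2 sites fell within 10 genes, picked here by this count after the values were seen. CDH4 held 5, with SKBR3 scores of 89.5, 514, 59, 215 and 113 and BT474 scores of 45, 126.5, 79.5, 187.5 and 18, in the order of the sites along chromosome 20. PTPRN2, a receptor-type phosphatase gene of secretory granules, held 3, with SKBR3 scores of 21.5, 155 and 37.5 and BT474 scores of 76, 149 and 30.5. PTPRT held 3, with 48, 97.5 and 401.5 in SKBR3 and 39, 88.5 and 27 in BT474. The genes AGBL1, FOXN3, GRM7, KCNJ6, RBFOX3 and VPS50 were among those that held 2 each. FOXN3, a forkhead repressor gene, had 287 and 251.5 in SKBR3 and 233 and 40 in BT474. KCNJ6, a potassium channel gene, had 192.5 and 90.5 in SKBR3 and 116.5 and 245.5 in BT474, so the order of its sites turned between the lines. Of the genes named here, all but VPS50 were longer than 300 kb, and VPS50 measured 129 kb.

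By chromosome, the sites were uneven. Chromosome 20, named after the counts were seen, held 40 sites, 7.74% of them (5.73 to 10.4) on 2.08% of the sequence. It held 6.90% of the SKBR3 EGF list but 2.16% of the BT474 EGF list. H3K4me1 reads per kb of island on this chromosome were 1.22 times the whole-genome value in SKBR3 and 1.52 times in BT474, and their part in the count was not tested. Chromosome 4 held 8 sites (1.55%) on 6.30% of the sequence.

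The core had a lower share at the sites than at the peaks of all 4 lists or those missing from SKBR3 vehicle alone. This is a description because peaks are not replicates. It lay within 50 bp of the midpoint in 31 sites, or 5.996% (4.26 to 8.39), against 12% of all SKBR3 EGF peaks. In windows of the same length centred 1 kb to either side, 12 of 1034 (1.16%, 0.665 to 2.02) held it. The share was 20.2% (15.6 to 25.7) in the peaks of all 4 lists, 15.8% (13.9 to 17.9) in those missing from SKBR3 vehicle alone and 2.03% (0.986 to 4.13) in those of SKBR3 EGF alone. The interval of the sites did not overlap those of the peaks in all 4 lists or missing from SKBR3 vehicle alone. As the core was looked for because earlier work on these files had shown it, the excess over flanks is a description of these lists. The overlapping BT474 EGF peaks had it in 6.04%, BT474 EGF peaks in no other list in 5.78%, the BT474 vehicle list in 12.0% and the SKBR3 vehicle list in 3.47%.

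Of the 4 forms of the core, CGTATGC was present at 14 of the 31 core-bearing sites, CGTGTGC at 9, CGTCTGC at 5 and CGTTTGC at 3. CGTATGC was present at 34 of 49 core-bearing peaks of all 4 lists, at 127 of 206 missing from SKBR3 vehicle alone and at 0 of 7 in SKBR3 EGF alone. The 35 core matches at the sites lay a median of 21 bp from the midpoint. Core-bearing sites had a median SKBR3 score of 85, a range from 8 to 228.5 and a median BT474 score of 82.5. Among them 17 were intronic, 13 intergenic and 1 in a promoter. In reverse complement, CGTATGC is also part of Illumina's P7 primer, which is added to the fragments in ChIP-exo, and any part of library primers in these peaks was not tested.

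Purine-rich sequence was the commoner feature. Within 50 bp of the midpoint, 217 sites (42.0%, 37.8 to 46.3) had purines at 70% or more of the bases on the richer strand, against 34% of all SKBR3 EGF peaks. The flanking windows reached this in 45 of 1034 cases (4.35%, 3.27 to 5.77). The threshold of 70% was chosen after the data were seen. The share was 46.1% (39.9 to 52.4) in peaks of all 4 lists, 29.3% (26.9 to 31.8) in those missing from SKBR3 vehicle alone and 24.1% (19.8 to 28.8) in SKBR3 EGF alone. The interval of the sites overlapped that of the peaks in all 4 lists. It lay above those of the peaks missing from SKBR3 vehicle alone and of SKBR3 EGF alone. The 112 peaks with other combinations were left out of this comparison of intervals. Of the 858 purine-rich peaks in the whole list, the sites made up 217. Peaks of all 4 lists made up 112, those missing from SKBR3 vehicle alone 382 and those of SKBR3 EGF alone 83. The rest were peaks with other combinations, whose purine-rich share was thus higher than that of the sites or any group compared here. The BT474 partner peaks had it in 41.3%, against 25.9% of BT474 EGF peaks in no other list. Purine-rich peaks were also frequent without EGF in SKBR3, at 35.0% of the vehicle list, and less so in BT474, at 16.9%.

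**Figure D3:**
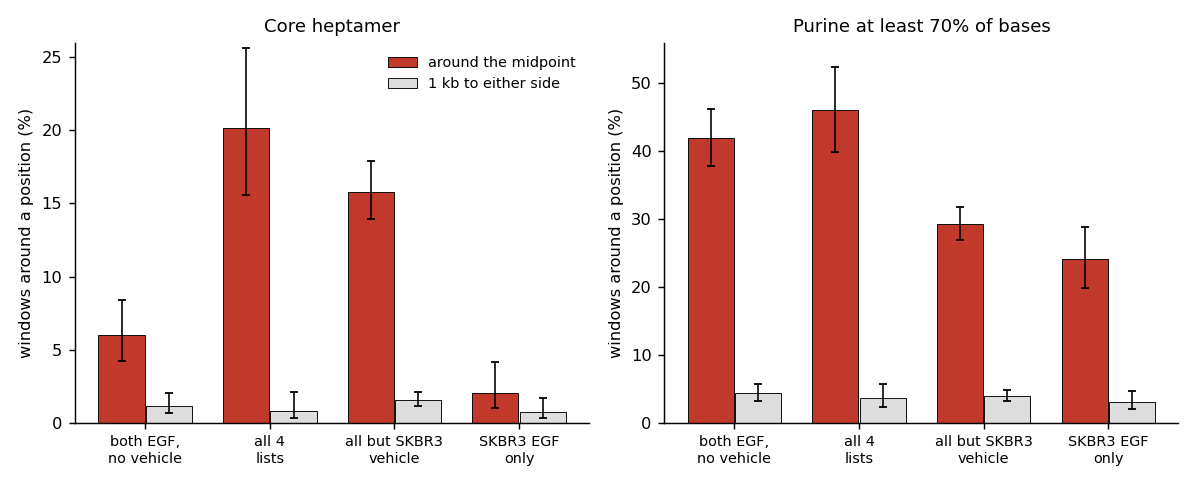
Bars give the share of 101 bp windows (y axis, percent) that hold the core (left) or at least 70% purine on the richer strand (right), around the midpoint and 1 kb to either side, for the 517 sites and the other groups of SKBR3 EGF peaks. Error bars are 95% Wilson intervals; the sites hold the core in 5.996% and are purine-rich in 42.0%.

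Over all 517 sites the median purine content was 67.3% (67.3 to 68.3) around the midpoint and 56.4% in the flanks. In 51 bp windows the mean was 70.2% ± 0.463 (SEM, n = 517 sites) at the midpoint, 63.5% ± 0.448 and 64.1% ± 0.447 at 100 bp to either side, and 59.3% ± 0.324 and 59.6% ± 0.320 at 1 kb. The rise was therefore narrow and nearly symmetric. GC content had no such rise, with a median of 44.6% (42.6 to 44.6) at the midpoint and 44.6% in the flanks. The longest purine or pyrimidine run had a median of 10 bases at the midpoint and 8 in the flanks, and reached 65 bases.

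**Figure D4:**
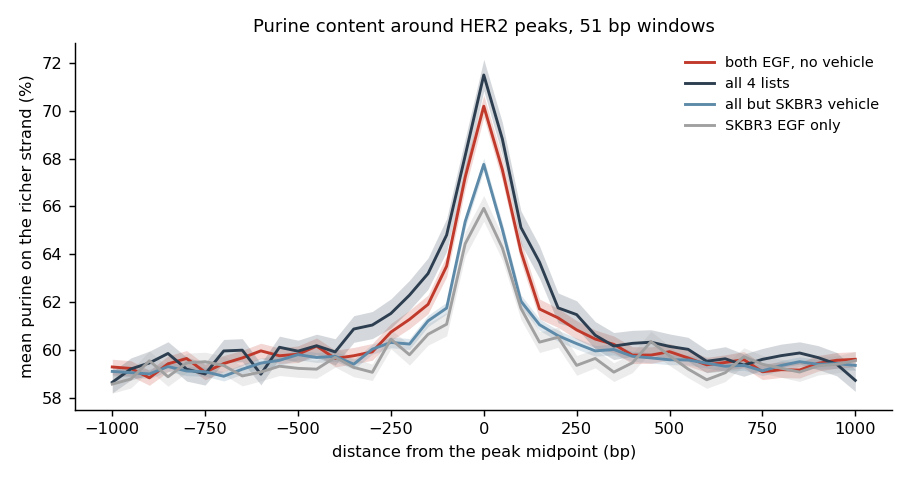
Lines give the mean purine content on the richer strand (y axis, percent) of 51 bp windows by distance from the peak midpoint (x axis, bp) for the 4 groups of SKBR3 EGF peaks, and bands are ± 1 SEM over peaks; the y axis does not start at 0. At the midpoint the 517 sites reach 70.2%, and all groups fall to about their level at 1 kb well before that distance.

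The 8-base words with the greatest excess over the flanks at the sites were GA repeats, some of them interrupted by CA. The words were picked on these same windows, so their shares are descriptions. AGAGACAG was present on either strand at 89 sites (17.2%) and in 2.13% of flanking windows, and GAGAGAGA at 84 (16.2%) and 1.93%. GAGACAGA was present at 82 sites (15.9%) and in 2.71% of flanks. The 8 words overlap each other, and 158 sites (30.6%) carried at least 1 of them, against 29.2% of the peaks in all 4 lists, 21.3% of those missing from SKBR3 vehicle alone and 13.6% of those in SKBR3 EGF alone.

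Few sites carried both the core and a purine-rich window. The core mixes purines and pyrimidines on each strand, so these measures are not independent by definition. The part of base composition was not tested. Of the 217 purine-rich sites 4 (1.84%, 0.719 to 4.64) held the core, against 27 of the other 300 (9%, 6.26 to 12.8). The order was the same in peaks of all 4 lists, at 14.3% against 25.2%. It was 10.5% against 18.0% in those missing from SKBR3 vehicle alone and 1.20% against 2.29% in SKBR3 EGF alone. Purine-rich sites had a median SKBR3 score of 110, against 109.25 for the others, and a median BT474 score of 91 against 69.75. They included 18 of the 27 promoter sites, 101 of the 256 intronic sites and 86 of the 210 intergenic sites. Among the 258 sites above the median SKBR3 score of the 517, 42.6% were purine-rich and 3.88% held the core, against 41.3% and 8.11% of the 259 at or below it. In 75 purine-rich sites the direction of the host gene was defined, and the purines lay on the coding strand in 26 (34.7%, 24.9 to 45.9). The share was 38.6% in peaks of all 4 lists, 25.3% in those missing from SKBR3 vehicle alone and 43.2% in SKBR3 EGF alone, so the sites lay within the range of the other groups. Low-complexity repeats of this kind occur at many places in the genome, and how well short reads were placed in them was not tested.

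H3K4me1 was independent of the rule, and most sites lay outside its islands. In SKBR3, 76 of the 517 sites overlapped an island in replicate 1 and 77 in replicate 2, a mean of 14.8% ± 0.137 (SD, n = 2). In BT474 the numbers were 58 and 57, a mean of 11.1% ± 0.137 (SD, n = 2). The replicates of each line differed by 1 site, and both SKBR3 values lay above both BT474 values. The difference, SKBR3 minus BT474, was 3.68 percentage points. The exact two-sided permutation test over the 4 libraries gave p = 0.3333, the smallest that 2 against 2 libraries allow, so the design could not reach 0.05. Over the 64 sites left with BT474 EGF cut to the length of the SKBR3 EGF list, the difference was 11.7 percentage points. The whole SKBR3 EGF list had the same order, with 15.2% ± 0.281 in SKBR3 and 12.4% ± 0.561 in BT474 (SD, n = 2). In the whole BT474 EGF list the lines lay closer, with 12.5% and 12.6% in the SKBR3 libraries and 12.4% and 11.7% in the BT474 libraries. Median island width was 3 and 3.2 kb in SKBR3 and 2.2 kb in each BT474 library, and its part in the difference was not tested.

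Islands of both replicates held 68 sites in SKBR3 (13.2%, 10.5 to 16.3), against 13.1% of all SKBR3 EGF peaks. For BT474 they held 47 sites (9.09%, 6.91 to 11.9), against 10.6% of the list. Each whole-list share lay within the interval of the sites. This is a description, because the list includes the sites and peaks are not replicates. For reference, the islands covered 10.4% and 10.6% of the genome in SKBR3 and 10.17% and 9.75% in BT474.

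**Figure D5:**
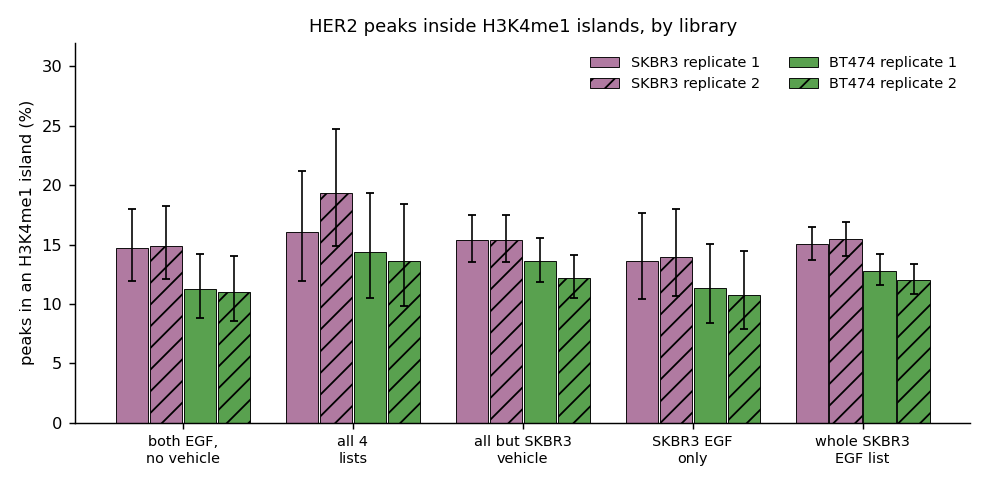
Bars give the share of peaks (y axis, percent) that overlap an H3K4me1 island in each of the 4 libraries, for the 517 sites, the other groups and the whole SKBR3 EGF list, and error bars are 95% Wilson intervals. The sites reach 14.7% and 14.9% in the SKBR3 libraries and 11.2% and 11.0% in the BT474 libraries.

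By pattern, 405 sites (78.3%) lay in no island of any library, 30 (5.80%) in all 4 libraries, 34 (6.58%) in both SKBR3 libraries alone and 13 (2.51%) in both BT474 libraries alone. The other 35 had mixed patterns. Sites in no island lay a median of 51.2 kb from a protein-coding start site, against 19.5 kb for the 30 in all 4 libraries. Of those 30, 17 were intronic and 2 in promoters, 10 were purine-rich and 1 held the core. Their median SKBR3 score was 124.5, against 109.5 for sites in no island.

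Among the sites in all 4 libraries, the highest SKBR3 score, 304.5, was at an intergenic site on the X chromosome nearest to MIR3937, whose islands held 287 and 65 reads in SKBR3 and 81 and 265 in BT474. At that site the replicates of each line thus differed widely, and the ranges of the lines overlapped. In FOXN3 the islands held 305 and 383 reads in SKBR3 and 369 and 232 in BT474. MAP3K13 had 604 and 711 in SKBR3 and 463 and 455 in BT474. An intergenic site 1.38 kb from ENSG00000287212 had 540 and 517 reads in SKBR3 and 532 and 438 in BT474. EFNA3, the gene for an ephrin ligand, had 469 and 537 in SKBR3 and 841 and 1197 in BT474. These are reads per island, unscaled for island width and depth.

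Elsewhere the mark differed between the lines at named sites. The BCL6 promoter site lay in islands of 393 and 643 reads in SKBR3 and in none in BT474. MUSK had 920 and 854 reads in SKBR3 and 121 and 166 in BT474, whereas PTK7 had 560 and 532 against 1157 and 906. The ABHD12 promoter had an island in each library, with 278, 270, 371 and 307 reads. LRFN3 had an island in SKBR3 replicate 1 with 108 reads and BT474 replicate 2 with 53, and in neither of their partner libraries. No island of any library was found at the sites of TMEM178B, HK1, JUN, INSR, PRKCE and ROR2.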

How the data were processed

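Samples were grouped by the line, treatment and antibody in their labels. The members and gene lists were chosen with earlier results of these data known. Per the study's methods, reads of single ends were mapped to hg19 with bowtie2, HER2 peaks were called with MACS2 and H3K4me1 islands with SICER, with input DNA as control and blacklisted regions removed. The submitters' processing notes instead name BWA 0.5.9, MACS 1.4.1 and SICER 1.1. The HER2 score per peak and the read count per H3K4me1 island were used as deposited by the authors, without scaling. The 2 input samples had no list and were not analysed here.

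The files have no header and no summits, so the peak midpoint was used. Sequence came from GRCh37, whose chromosome 1 of 249250621 bp has the hg19 length, and genes from GENCODE release 44 mapped to it. Start sites were those of every annotated transcript. Each midpoint was assigned to a promoter, exon, intron or intergenic sequence, in that order. Windows were 101 bp long. Overlaps, Wilson intervals at 95%, medians with order-statistic intervals and the exact permutation test were computed in Python 3.11.15 with numpy 2.4.6, pandas 2.3.3, scipy 1.17.1 and pysam 0.24.0. The grouping of peaks by overlap, the core search, the purine measure and the median intervals were tried on simulated data. The Wilson intervals and the permutation test were not. HER2 had 1 list per condition, so no treatment was tested. H3K4me1 libraries are replicates by label, and nothing says that they came from separate cultures, so their spread may be technical.

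Named genes were those at the 10 highest SKBR3 and 5 highest BT474 scores, the 10 highest protein-coding promoters, the listed pathway genes with a site and the 5 highest sites with H3K4me1 in all libraries. Others were named after their values were seen, as stated. For the alternatives, sites were redefined in 4 ways, and promoter length, gene class, window, island rule and library were changed. A few items that this rule names are not reported here.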

Additional observations from a re-analysis of the deposited data

How the results depend on the processing

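Of 60 alternatives, 39 left the value within its interval, within 1.5 times for counts or on the same side for H3K4me1, 21 moved it and 0 reversed it. Asking for 50% coverage of the peak (511 sites) or no vehicle peak within 1 kb (493 sites) moved nothing. With scores at or above the median of both EGF lists, which selects on the score itself, there were 155 sites and 110 genes, with median percentiles of 69.4 in SKBR3 and 81.7 in BT474, 7.74% in promoters, 3.87% with the core and 46.5% purine-rich. With the BT474 EGF list cut to the length of the SKBR3 EGF list by its highest scores, 64 sites and 46 genes were left. The vehicle lists were kept whole. The BT474 percentile of 95.1 follows from this cut, which also selects on the score. Introns held 54.7%, and 59.4% were purine-rich. The number of sites thus rests on the length of the BT474 EGF list. A distance of 5 kb gave 178 genes and protein-coding genes alone 162. Promoters of 2.5 kb held 10.8%, and introns of protein-coding genes alone 39.1%. The core was found in 8.90% of whole peaks and 8.70% within 100 bp of the midpoint. Purine thresholds of 65% and 75%, chosen after the data were seen like every alternative for purines, gave 62.3% and 25.3%, and whole peaks 25.5%. The H3K4me1 difference stayed positive in its 11 alternatives, between 3.48 and 11.7 percentage points, the highest with the BT474 EGF list cut. Leaving out each library gave 3.58 to 3.77. Replicate numbers are not said to pair the libraries, and with the replicate block the difference was 3.68 with an exact sign-flip p of 0.5, the smallest possible for 2 pairs. Depth of the HER2 libraries is unknown and limits every count of sites.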
